A study of Danio rerio with 6 samples.

Results

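Glutamate receptor genes and the genes of their scaffold proteins were compared between thrb-/- and wild-type zebrafish retina. They were taken by symbol: every AMPA (gria), kainate (grik), delta (grid), NMDA (grin) and metabotropic (grm) receptor gene, with the scaffold genes of the homer, shank and dlg families. The rule found 30 of the 9211 genes in the authors' deposited table, 13 ionotropic receptor genes, 7 metabotropic receptor genes and 10 scaffold genes. It also takes up grid2ipb, whose product, delphilin, is a scaffold. The RefSeq gene table (assembly GRCz12tu) holds 63 protein-coding genes that fit the same rule. All 30 were matched to it, 25 under the same symbol and 5 under an older one (dlg1, dlg1l, homer3 and shank2, for example, are named dlg1a, dlg1b, homer3b and shank2b there). The other 33 RefSeq genes are not among the 30. Of these, 32 are not listed by the authors under a RefSeq symbol or synonym, for reasons unknown, so they could not be compared. The remaining one, grm2b, is listed as gb:kf234084 and is given with its relatives below.

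The mutant fish were homozygous for the stl628 allele of thrb, the gene of thyroid hormone receptor beta, which directs the red cone fate in fish retina. The wild-type fish came from the same clutches. Both genotypes had the AB* background and were sampled at 6 months of age, with 3 samples each, and every sample pooled the retinas of 1 male and 1 female. Whole-retina mRNA was sequenced, and the authors' deposited table gives a mean normalized count per genotype, the log2 fold change of mutant relative to wild-type retina (log2FC) with a standard error (SE), and no value per sample. Transcripts of thrb averaged 413 normalized counts in mutants and 3301 in wild-type in the authors' deposited table (log2FC -3.01, SE 0.13). The retinal origin is seen in the rod opsin rho, at 713968 in mutants and 592476 in wild-type, and in the bipolar cell factor vsx1, at 3505 in mutants and 3564 in wild-type, as given in the authors' deposited table. In whole tissue, fewer cells of a type and less RNA per cell cannot be told apart.

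Glutamate is the transmitter of photoreceptors and bipolar cells. Photoreceptors release it in darkness. OFF bipolar and horizontal cells answer through AMPA and kainate receptors, which are ion channels opened by glutamate. In mammals, ON bipolar cells answer through the metabotropic receptor mGluR6, a G protein-coupled receptor whose activity closes the TRPM1 channel. They are therefore excited by light. Amacrine and ganglion cells carry AMPA and NMDA receptors. Homer, Shank and the membrane-associated guanylate kinases of the Dlg family hold receptors in place below the synaptic membrane.

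None of the 30 genes passed the test for a difference between the genotypes, in either direction. The test was a Wald test of the authors' log2 fold change over its standard error, two-sided, with Benjamini-Hochberg adjustment over all 9211 genes and a threshold of 0.05. Over all genes it called 2.08%, with 0.879% higher and 1.21% lower in the mutant, so 0 of 30 lies close to what that share gives for a list of this length. The authors' own test, for a change of more than 2-fold, called 0 of the 30 and 0.076% of all genes. At an unadjusted p under 0.05, 2 of the 30 were past the threshold, gria3b and dlg4b, against 8.29% of all genes. With a t distribution of 4 degrees of freedom in place of the normal one, 0 of the 30 and 310 of the 9211 genes reached an unadjusted p under 0.05. For a list of 30, a count of 0 lies close to that share as well. The adjusted p of the 30 ran from 0.19 to 0.998 in the Wald test.

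The absence of calls can be read against the precision. Standard errors in the authors' deposited table ran from 0.083 for gria3a to 0.27 for grm3, with a median of 0.12 over the 30 and of 0.14 over all genes. The smallest statistic called was 3.28 standard errors. A gene with the precision of gria3a would therefore have needed a 1.21-fold change to be called, the median gene of the 30 a 1.32-fold change and grm3 a 1.85-fold change. Within the same range of standard errors 179 other genes were called, the smallest with an absolute log2 fold change of 0.29. The 95% intervals (1.96 standard errors on either side) lay inside a 2-fold change for all 30 genes and inside a 1.5-fold change for 27, the exceptions being grik5, grin2bb and grm3. They lay inside a 1.25-fold change for 12 genes. Over all genes the same shares were 97.1%, 81.4% and 30.5%. All intervals and needed changes given here rest on the normal distribution. A t distribution with 4 degrees of freedom would give wider intervals and larger needed changes, and they were not recomputed with it.

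**Figure D1:**
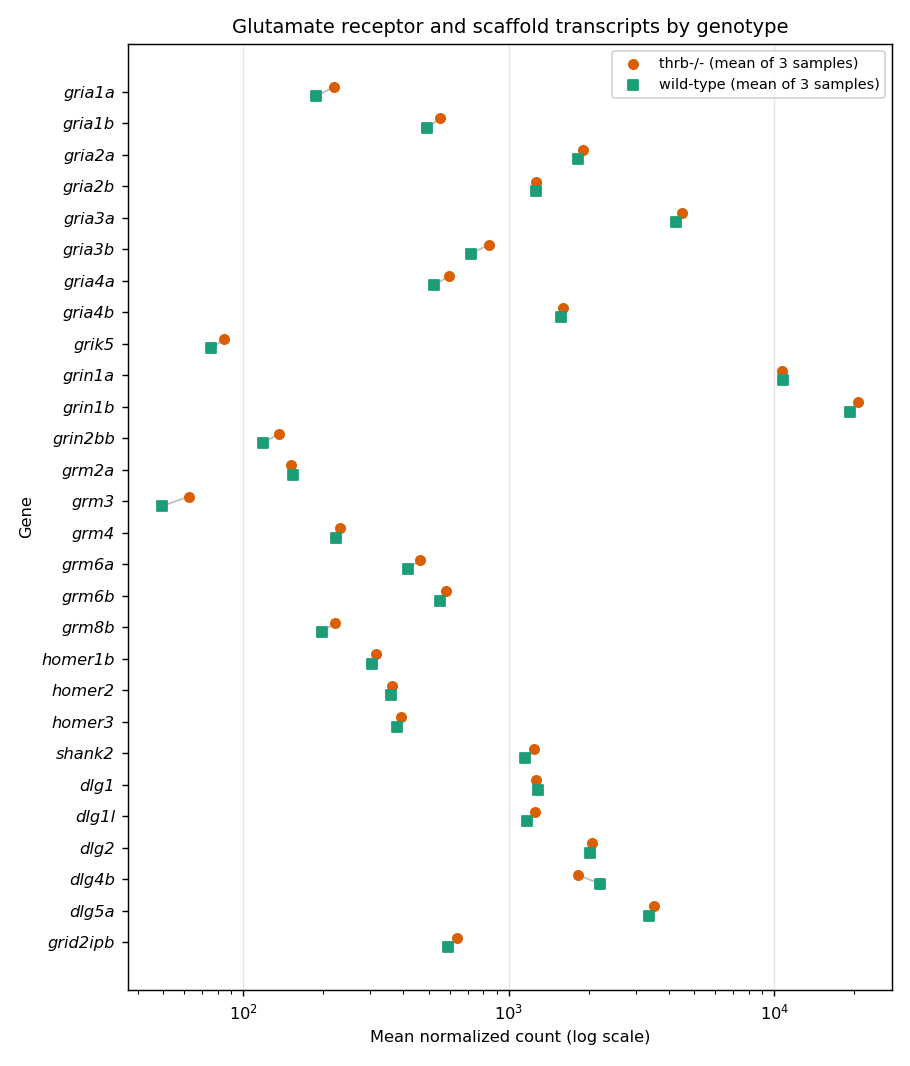
Mean normalized count (log axis) of 28 of the 30 genes, with the thrb-/- mean as a circle and the wild-type mean as a square; the deposited table gives group means only, so no error bars can be drawn. Both means nearly coincide for most genes, grm3 has the lowest pair at 62.3 in thrb-/- and 49.6 in wild-type, and dlg4b is the one gene set visibly lower in thrb-/-.

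The AMPA receptor genes, which encode the channels of fast glutamate transmission, were the best represented, with both copies of all 4 subunits listed. Their log2 fold changes lay between -0.0025 and 0.23 with a median of 0.12, and 0 of 8 passed. Duplicated gene copies carry the suffixes a and b in zebrafish. The largest value belonged to gria3b, a GluA3 gene, which averaged 843 normalized counts in mutants and 718 in wild-type in the authors' deposited table. Its log2 fold change of 0.23 (SE 0.12, 95% interval 0.0088 to 0.46) had an unadjusted p of 0.042 and an adjusted p of 0.55 in the Wald test. The other GluA3 gene, gria3a, stood at 4503 in mutants and 4263 in wild-type (authors' deposited table), and its log2 fold change was 0.079 (SE 0.083, interval -0.084 to 0.24).

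GluA1 and GluA4 channels are also encoded by a pair of genes each. From the authors' deposited table, gria1a had 219 normalized counts in mutants against 188 in wild-type (log2FC 0.22, SE 0.16). Its copy gria1b had 549 in mutants against 491 in wild-type (0.16, SE 0.12, authors' deposited table). For gria4a the authors' deposited table gives 593 in mutants and 525 in wild-type (log2FC 0.18, SE 0.12). The second GluA4 gene, gria4b, had 1598 in mutants and 1569 in wild-type in the authors' deposited table (0.028, SE 0.096). None of these 4 intervals excluded 0.

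GluA2 is the subunit that makes AMPA receptors nearly impermeable to calcium. Its genes lay close to 0. The authors' deposited table puts gria2a at 1895 in mutants and 1821 in wild-type (log2FC 0.058, SE 0.091) and gria2b at 1265 in mutants and 1269 in wild-type (-0.0025, SE 0.11). The interval of gria2b, -0.23 to 0.22, has 0 near its middle. Added over the 8 genes, the group means came to 11464 normalized counts in mutants and 10844 in wild-type in the authors' deposited table, a ratio of 1.06 that carries no error because the samples are not listed singly.

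Of the NMDA receptor genes, whose channels need glutamate and glycine or serine and pass calcium, 3 were listed and 0 passed. GluN1, the subunit that all NMDA receptors contain, is encoded by grin1a and grin1b. In thrb-/- retina grin1b averaged 20591 normalized counts, against 19251 in wild-type, in the authors' deposited table. Its log2 fold change was 0.097 (SE 0.091), with an interval from -0.08 to 0.27. Its copy grin1a averaged 10674 in mutants and 10753 in wild-type according to the authors' deposited table (log2FC -0.01, SE 0.086, interval -0.18 to 0.16). At 1.96 standard errors, these 2 intervals exclude a 1.25-fold change. The glutamate-binding GluN2B gene grin2bb was less precisely measured, at 137 in mutants and 118 in wild-type in the authors' deposited table (log2FC 0.21, SE 0.20, interval -0.19 to 0.61).

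The kainate receptors were represented by 1 gene. The authors' deposited table gives grik5, a kainate receptor subunit that in mammals forms channels only together with other kainate subunits, 84.6 normalized counts in mutants and 75.8 in wild-type. Its log2 fold change of 0.16 had a standard error of 0.23, and the interval ran from -0.30 to 0.62. The delphilin gene grid2ipb had 639 in mutants and 590 in wild-type (authors' deposited table; log2FC 0.11, SE 0.16).

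**Figure D2:**
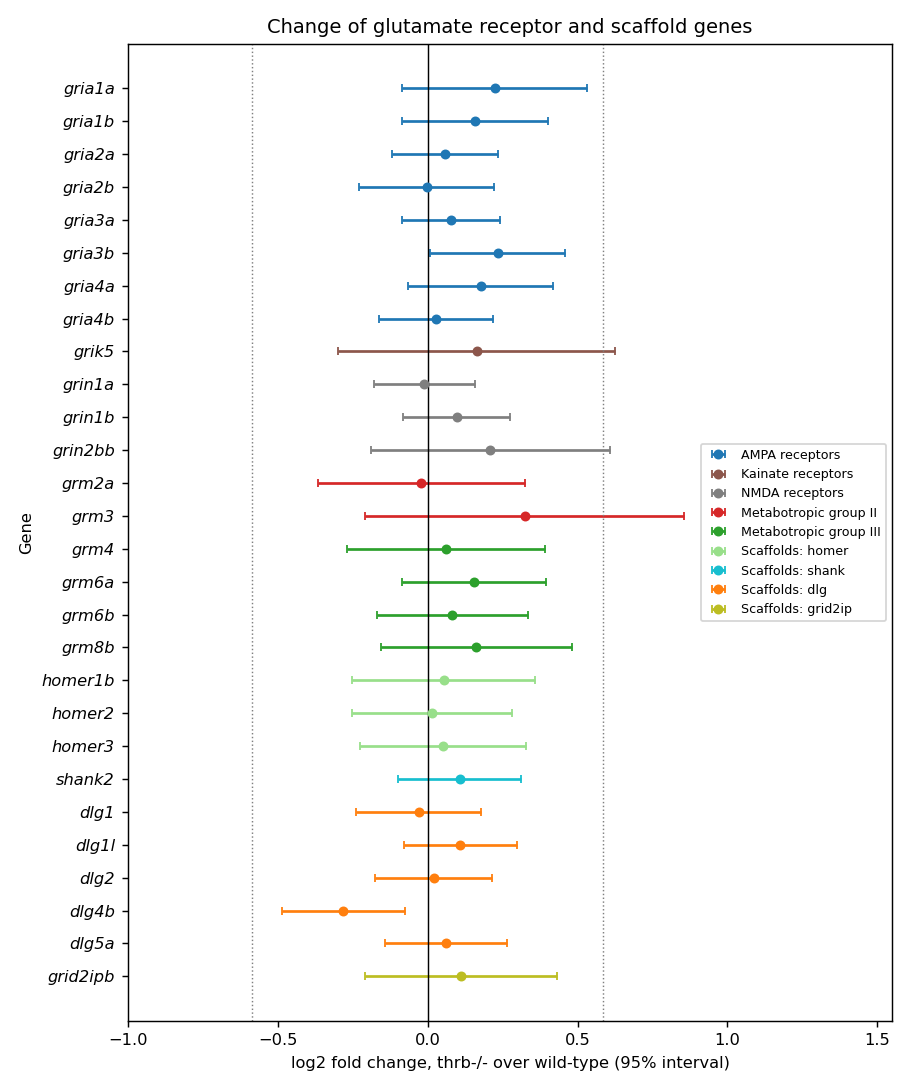
Log2 fold change (thrb-/- over wild-type) of the same 28 genes with 95% intervals, coloured by subfamily; the dotted lines mark a 1.5-fold change in either direction. All intervals include 0 except those of gria3b and dlg4b, and only those of grik5, grin2bb and grm3 cross a dotted line.

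Metabotropic receptor genes numbered 7 and 0 passed, with log2 fold changes between -0.02 and 0.32 and a median of 0.12. The ON bipolar receptor mGluR6 has both copies listed. In the authors' deposited table grm6a averaged 464 normalized counts in mutants and 417 in wild-type (log2FC 0.16, SE 0.12, interval -0.084 to 0.39). Its copy grm6b averaged 579 in mutants and 548 in wild-type in the authors' deposited table (0.082, SE 0.13, interval -0.17 to 0.33). Both intervals exclude a 1.5-fold change in either direction. The other receptors of this group III, which in mammals include presynaptic autoreceptors, were grm4, at 232 in mutants and 223 in wild-type, and grm8b, at 222 in mutants and 198 in wild-type (authors' deposited table). Their log2 fold changes in the authors' deposited table were 0.062 (SE 0.17) and 0.16 (SE 0.16).

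Group II receptors inhibit adenylyl cyclase. For grm2a the authors' deposited table gives 151 in mutants and 153 in wild-type (log2FC -0.02, SE 0.18). The largest fold change of all 30 was that of grm3, with 62.3 in mutants and 49.6 in wild-type in the authors' deposited table (0.32, SE 0.27, interval -0.21 to 0.86, adjusted p = 0.98 in the Wald test). No gene is listed unless at least one genotype mean is above 50, and grm3 reached that through its mutant mean alone, so its place in the list is not independent of the direction of its value. The gene grm2b, outside the 30 because of its clone name gb:kf234084, stood at 369 in mutants and 356 in wild-type (log2FC 0.049, SE 0.14, authors' deposited table).

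Among the scaffolds, 0 of 10 passed, and dlg4b lay apart from the rest. It encodes PSD-95, which clusters NMDA receptors and potassium channels and in mammalian retina is also found in photoreceptor terminals. In thrb-/- retina dlg4b averaged 1819 normalized counts, against 2208 in wild-type, in the authors' deposited table. It was 1.21-fold lower, at 82.3% of the wild-type level (log2FC -0.28, SE 0.10, interval -0.48 to -0.076). This had an unadjusted p of 0.0071 and an adjusted p of 0.19 in the Wald test, and a call at this precision would have taken a 1.27-fold change. With the t distribution the unadjusted p of dlg4b was 0.054. No other gene of the 30 had an estimate below -0.03.

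The other Dlg genes differed less. The SAP97 genes dlg1 and dlg1l stood at 1260 and 1258 in mutants, against 1286 and 1166 in wild-type, in the authors' deposited table (log2FC -0.029, SE 0.11, and 0.11, SE 0.096). The PSD-93 gene dlg2 had 2053 in mutants and 2026 in wild-type (authors' deposited table; 0.02, SE 0.099). The more distant relative dlg5a, which in mammals serves cell polarity and adhesion, had 3524 in mutants and 3380 in wild-type in the authors' deposited table (0.061, SE 0.10).

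Homer proteins link metabotropic receptors to calcium stores and to Shank. The 3 homer genes had log2 fold changes from 0.015 to 0.054 in the authors' deposited table, with standard errors from 0.14 to 0.16. Their means there were 317 in mutants and 306 in wild-type for homer1b, 364 in mutants and 361 in wild-type for homer2, and 394 in mutants and 379 in wild-type for homer3 (authors' deposited table). The gene shank2, a master scaffold of the postsynaptic density, had 1242 in mutants and 1155 in wild-type in the authors' deposited table (log2FC 0.11, SE 0.11).

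Though no gene passed, most estimates lay on one side of 0. Of the 30, 25 had a log2 fold change above 0 and 5 below, namely gria2b, grin1a, grm2a, dlg1 and dlg4b; with the 2 genotypes scaled to equal total counts, gria2b and grin1a turned positive as well and the number above 0 was 27. Over all genes 50.1% were above 0. The median log2 fold change was 0.09 for the 30 genes and 0.00063 for all genes. In the subfamilies with at least 3 listed genes the medians were 0.12 for AMPA, 0.097 for NMDA, 0.12 for group III metabotropic, 0.052 for homer and 0.02 for dlg genes. The 2 group II metabotropic genes had a median of 0.15, and the subfamilies with 1 listed gene had values from 0.11 to 0.16. The quartiles of the 30 were 0.034 and 0.16, and those of all genes -0.093 and 0.097. All genes were measured in the same 6 samples, and their errors are not independent, so these counts and medians are descriptions without a test.

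**Figure D3:**
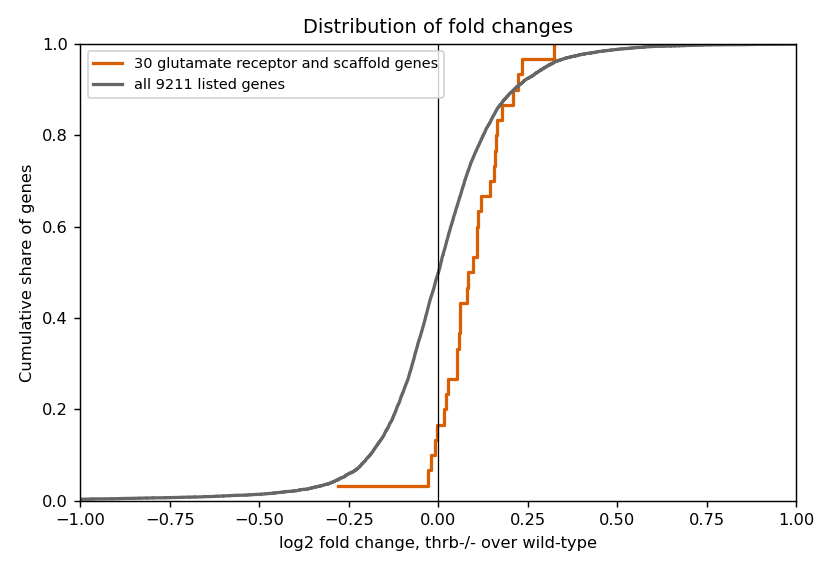
Cumulative share of genes (vertical axis) at or below each log2 fold change (thrb-/- over wild-type, horizontal axis) for the 30 glutamate receptor and scaffold genes and for all 9211 listed genes, with the horizontal axis limited to changes below 2-fold. The line of the 30 genes crosses its middle at 0.09 and that of all genes at 0.00063.

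Paralogous copies were compared directly, because duplicated genes can respond differently. The difference of the 2 log2 fold changes was tested for the 886 pairs in the table whose symbols differ only in a final a or b, with adjustment over all of them. Of these pairs 1.92% differed, and of the 6 pairs among the receptors (gria1, gria2, gria3, gria4, grin1 and grm6) 0 did, also without adjustment or with the t distribution. The largest difference was that of gria3a and gria3b, at -0.16 (SE 0.14, 95% interval -0.43 to 0.12, adjusted p = 0.998 in the Wald test of the difference). For the mGluR6 genes the difference was 0.073 (SE 0.18, interval -0.27 to 0.42), and for the GluN1 genes -0.11 (SE 0.12, interval -0.35 to 0.14). All 6 intervals exclude a difference of more than 1.37-fold between the copies. Reads from close copies may have been assigned to either of them, and the shared samples may tie their errors together.

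**Figure D4:**
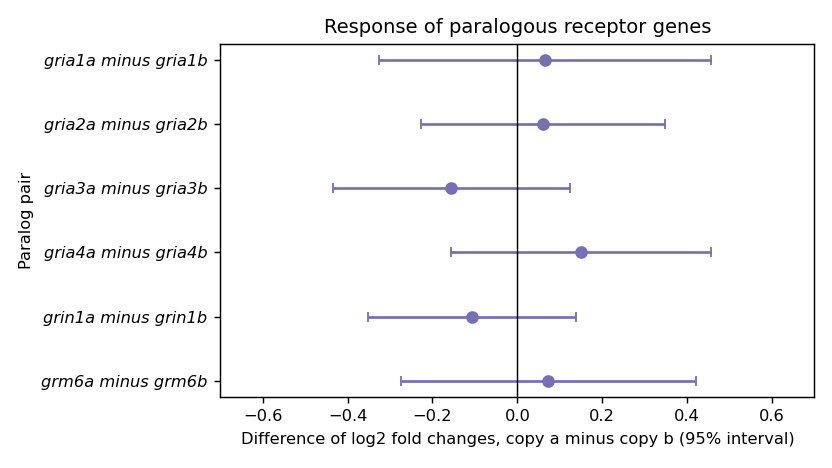
Difference between the log2 fold changes of the 2 copies of a receptor gene, copy a minus copy b, with 95% intervals. All 6 intervals include 0, with estimates from -0.16 for gria3 to 0.15 for gria4.

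Genes that act with the receptors were taken from 4 further lists of 56 genes, of which 1 passed, against 2.08% of all genes, so this count is near the background. The gene was lrit3a, in the list of the ON bipolar mGluR6 cascade, where 1 of 14 fell, 0 rose and 13 did not pass (median 0.044). LRIT3 is a leucine-rich repeat protein that in mice is made by photoreceptors and is needed to assemble nyctalopin and TRPM1 on the ON bipolar dendrite opposite. In the authors' deposited table lrit3a averaged 1446 normalized counts in mutants and 2329 in wild-type, 1.61-fold lower (log2FC -0.69, SE 0.11, adjusted p = 1.58e-08 in the Wald test). It did not pass with the t distribution (adjusted p = 0.75), which called 1 gene in all, nor in the authors' test for changes beyond 2-fold. Its copy lrit3b stood at 132 in mutants and 124 in wild-type (authors' deposited table; 0.089, SE 0.22). The difference between lrit3a and lrit3b was -0.78 (SE 0.24), which did not pass in the Wald test over all pairs (adjusted p = 0.061).

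The postsynaptic members of that cascade did not pass. For the TRPM1 channel genes the authors' deposited table gives log2FC values of -0.18 (SE 0.15, trpm1a) and 0.065 (SE 0.11, trpm1b). Nyctalopin, encoded by nyx, stood at 484 in mutants and 452 in wild-type (authors' deposited table; 0.10, SE 0.13). For gnao1a, a gene of the G protein that mGluR6 activates, the authors' deposited table gives 5386 in mutants and 4310 in wild-type (log2FC 0.32, SE 0.11), with an adjusted p of 0.091 in the Wald test. Its copy gnao1b had 4807 in mutants and 4429 in wild-type in the authors' deposited table (0.12, SE 0.08). Whole-retina values do not show which cells the gnao1a and gnao1b transcripts came from. The G protein genes gnb5a (-0.25, SE 0.12), gnb5b (-0.21, SE 0.10) and gnb3b (-0.20, SE 0.11), which photoreceptors also express, were below 0 in the authors' deposited table. There gnb3b averaged 64628 in mutants and 74084 in wild-type, and the photoreceptor gene gnat2 80588 in mutants and 89153 in wild-type. The gene gnat2 does not stand for photoreceptor genes at large: of the 12 photoreceptor markers set out below, 7 lay above 0 and 5 below (median 0.19). The part of photoreceptors in these values was not tested. Of the 14 genes in the cascade list, 8 lay above 0 and 6 below.

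In the remaining 3 lists 0 genes passed. At an unadjusted p under 0.05 there were 4 of 14 genes in the cascade list, 3 lower and 1 higher, against 8.29% of all genes. The counts in the other lists were 1 of 9 auxiliary subunit genes, 2 of 11 transport genes and 2 of 22 postsynaptic density and neurexin genes. All 9 listed auxiliary subunit and AMPA receptor-associated genes had estimates above 0 (median 0.22), against 50.1% of all genes (median 0.00063). They ran from 0.017 for gsg1l to 0.44 for shisa9b, and 8 of the 9 intervals included 0. The exception was olfm1a (0.41, SE 0.19, adjusted p = 0.42 in the Wald test). The list also holds olfm1b, olfm2a and olfm3a, so it is not made up of channel subunits alone. The value of shisa9b rests on low counts, 76.7 in mutants and 56 in wild-type (authors' deposited table; SE 0.28). Among the 9 genes, the authors' deposited table gives cacng2a, the stargazin gene that delivers AMPA receptors to the synapse, 557 in mutants and 478 in wild-type (log2FC 0.22, SE 0.14). It puts cacng7a, of the same family, at 149 in mutants and 118 in wild-type (0.33, SE 0.19, authors' deposited table). The 11 genes of glutamate transport and vesicle loading were taken by their slc1a and slc17a symbols, whatever their substrate. Of these, 5 lay above 0 and 6 below (median -0.013). The 2 at an unadjusted p under 0.05 in the Wald test were slc1a2a and slc1a5 (-0.28, SE 0.11, for slc1a5). The vesicular transporter gene slc17a7a had 3256 in mutants and 3521 in wild-type in the authors' deposited table (-0.11, SE 0.13), and slc1a2a, a membrane glutamate transporter gene, 1739 in mutants and 2236 in wild-type (-0.36, SE 0.14, adjusted p = 0.27 in the Wald test). The more abundant copy slc1a2b lay above 0, at 10623 in mutants and 9865 in wild-type (authors' deposited table; 0.11, SE 0.085). The difference between slc1a2a and slc1a2b was -0.47 (SE 0.17, adjusted p = 0.19 in the Wald test over all pairs). Of the 22 genes in the list of postsynaptic density and neurexin genes, 17 lay above 0 (median 0.059). The neurexin genes nrxn3a and nrxn3b were both at an unadjusted p under 0.05, with adjusted p of 0.14 and 0.13 in the Wald test; the authors' deposited table gives them log2FC values of 0.25 (SE 0.088) and 0.24 (SE 0.082). A further 4 camk2 genes, which carry a numeral in place of the letter suffix and were added after their values were seen, did not pass, with log2 fold changes from -0.26 to 0.12.

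**Figure D5:**
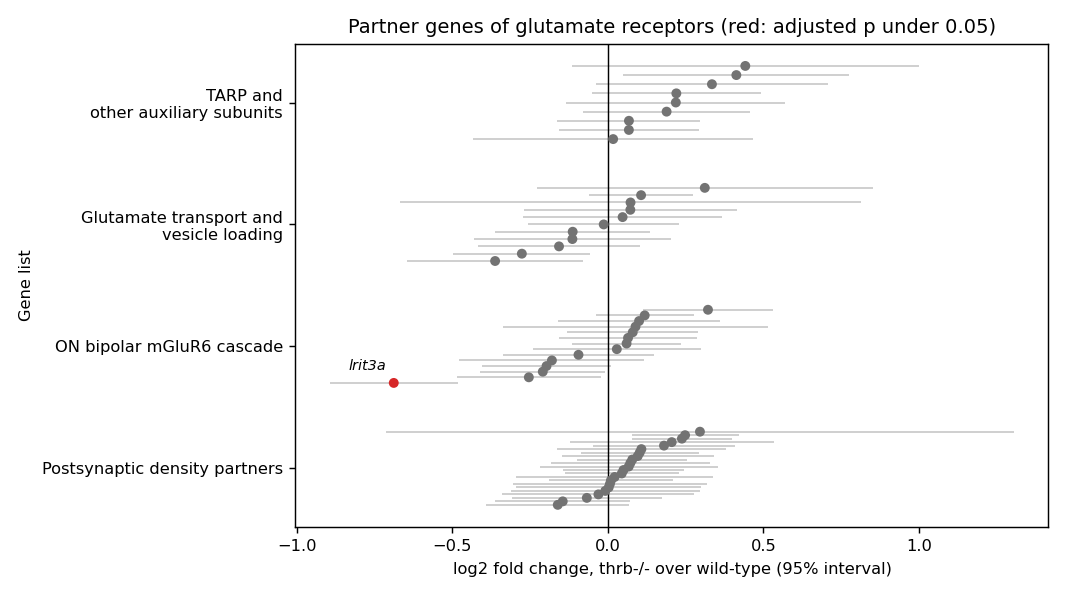
Log2 fold change (thrb-/- over wild-type) with 95% intervals of 56 partner genes in 4 lists, ordered by value within a list. The gene past an adjusted p of 0.05, lrit3a, is red at -0.69. All 9 genes of the auxiliary subunit list lie right of 0, and 8 of their 9 intervals include 0.

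Markers of retinal cell types were set beside these genes, and some belong to both. The bipolar markers include grm6a and grm6b of the 30, and gnao1a, gnao1b, nyx, trpm1a and trpm1b of the cascade list. The Müller glia markers include slc1a2b and slc1a3a of the transport list. The medians of these marker sets are therefore not independent of the genes above. The median log2 fold change was 0.065 for 13 bipolar, -0.081 for 7 horizontal, 0.042 for 11 amacrine, -0.012 for 10 ganglion and 0.11 for 9 Müller glia genes listed. Of these, lhx1a (horizontal) and gad1b (amacrine) fell and elavl3 and elavl4 (ganglion) rose, where over all genes 2.08% passed. These genes do not stand for their lists: 3 of 7 horizontal, 9 of 11 amacrine and 4 of 10 ganglion genes lay above 0. Among 12 photoreceptor genes, the red opsins opn1lw1 and opn1lw2 fell and opn1mw2 and opn1sw2 rose (median 0.19). With adjustment over 13700 genes, the number that the deposited adjusted p-values imply, lhx1a (adjusted p = 0.0545), elavl4 (0.072) and opn1sw2 (0.052) did not pass the Wald test, and of all these markers only opn1lw2 passed with the t distribution. All 4 pigment epithelium genes listed fell (median -0.97), with a summed mean of 1535 in mutants and 3191 in wild-type in the authors' deposited table. None of the 4 passed with the t distribution or in the authors' test for changes beyond 2-fold. Optic nerve or brain glia were represented by 5 of 7 markers, summing to 1157 in mutants and 1057 in wild-type (authors' deposited table; median 0.1), and lens, blood and muscle by 1 marker each. The part of any of these cells in the values of the receptor genes was not tested. None of the 30 genes lies on the chromosome that carries thrb in the RefSeq table.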

How the data were processed

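RNA was poly-A-selected per the labels' protocols, which name no step that marks strand, so a gene and an overlapping antisense gene may share reads. The submitters' processing notes list the build danRer10 with the tools DESeq2 1.18.1, HTSeq 0.9.1, STAR 2.7.2b, cutadapt 1.9.1 and R 3.4.3, but no order or settings; for the annotation, nothing is given in the sources used here. The authors deposited 1 table with, for each gene, mean normalized counts per genotype (a signal: counts divided by a size factor), the log2 fold change with its standard error, a test statistic (a score) and p-values. The deposited statistic and p-values test for changes beyond 2-fold, as seen on the values. The larger genotype mean is never below 50.04. Depth is unknown, since no counts are given, so precision was taken from the deposited standard errors; these, and all p-values, rest on the authors' model of the spread among pooled samples, and assume that it holds.

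From these columns a Wald test against no change was computed (Python 3.11.15, scipy 1.17.1), with the normal distribution and Benjamini-Hochberg adjustment over 9211 genes. The code was checked on simulated data with normal errors of the deposited size. That check cannot show whether the normal distribution holds for these samples. Paralog pairs were tested by the difference of their fold changes over the root of the summed squared errors. The members, lists and tests were chosen with earlier results of these data known. Named were members that passed, the most abundant member and the one with the largest statistic in each subfamily, and grm6a and grm6b; the other members are given for completeness (2 enter all counts and medians but are not reported here singly), and partner genes that did not pass were picked after their values were seen. In 10 rows the gene name has turned into a calendar date; these rows stayed in the adjustment. Alternatives were a t distribution with 4 degrees of freedom, the authors' test and an adjusted p under 0.10. Others were adjustment over 13700 genes (the number the deposited adjusted p-values imply) and a mean count of at least 100. Further ones were scaling of the median or of the total, and a log2 ratio with a pseudocount of 1. The last was leaving out members on the thrb chromosome. No member lies there and the adjustment was kept, so this last setting was identical to the main run.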

Additional observations from a re-analysis of the deposited data

How the results depend on the processing

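The alternatives run for calls were those listed above except the log2 ratio with a pseudocount, which was run for medians. In these, 0 of the 30 genes passed in either direction. In the alternatives run for pairs, 0 of the 6 receptor pairs differed. The t distribution, the authors' test and adjustment over the larger number of genes are stricter than the main test. Since the main test called 0 of the 30, these stricter tests could only return 0 again. The same holds for the t distribution among the receptor pairs. Leaving out genes on the thrb chromosome removed 0 of the 30 and so repeated the main result. The median log2 fold change of the 30 lay between 0.081 (mean count of at least 100) and 0.11 (equal totals), and the number above 0 was 23 of the 28 left at that mean count. The median of the group II metabotropic genes moved to -0.021 at a mean count of at least 100, because grm3 was left out. Over all genes the calls fell to 0 higher and 1 lower with the t distribution, and to 1 higher and 6 lower in the authors' test, and with the t distribution 0 of all paralog pairs differed. In the mGluR6 cascade list 0 genes were called with the t distribution or the authors' test, and 2 at an adjusted p under 0.10 (lrit3a and gnao1a). The adjusted p of lrit3a was at most 5.22e-08 in the other alternatives. Scaling to equal totals shifts every log2 fold change by 0.02. No paired analysis was possible because the table holds genotype means and no values per sample, and for the same reason no replicate could be left out.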
